A study of Mus musculus and Rattus norvegicus with 28 samples.

Results

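The genes described here are the 9 troponin and tropomyosin genes Tnnc1, Tnni1, Tnni3, Tnnt1, Tnnt2, Tpm1, Tpm2, Tpm3 and Tpm4, chosen by name. They are 9 of 55450 mouse genes and 9 of 32623 rat genes in the expression files, and all 9 were among the 13979 mouse genes and the 13625 rat genes that passed the filter on low values. The filter was a level of at least 1 FPKM (fragments per kilobase of transcript, scaled to library size) in at least 2 mouse or 3 rat libraries. A gene's FPKM is the sum over its annotated transcripts, so levels can be compared between genes per unit of length.

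Troponin and tropomyosin make the thin filament of striated muscle responsive to calcium. Tropomyosin lies along actin as a coiled coil, troponin T ties the troponin complex to it, troponin I holds back the interaction of actin with myosin, and troponin C binds calcium and releases that hold. The heart is known to exchange the slow skeletal troponin I (Tnni1) for the cardiac form (Tnni3) around birth, and to splice troponin T differently in the fetus and the adult. Tropomyosins are also present on the actin of smooth muscle and non-muscle cells, where each gene makes other isoforms by alternative starts, exons and ends.

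Cardiomyocytes were taken from left ventricles of wild-type C57BL/6 mice of both sexes at embryonic day 18.5 (E18.5) and at postnatal days 1 (P1), 3 (P3) and 7 (P7), with 2 RNA-seq and 2 ATAC-seq libraries per age. Neonatal rat ventricular cardiomyocytes (NRVCs) came from P1 Sprague Dawley rats, were plated, and were given 100 nM trichostatin A (TSA, an inhibitor of histone deacetylases) or its solvent DMSO 1 day later, with 3 RNA-seq libraries per treatment. All preparations were enriched by letting other cells attach to plastic, so each library is a bulk sample that may hold other cell types. The sources used here do not say how many animals went into a library, so p-values measure the spread between these libraries, which may be partly technical. The 6 HiChIP libraries were not analysed here.

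The RNA-seq libraries held 29.3 to 37.5 M reads (mouse) and 28.2 to 38.5 M reads (rat) of 150 bases, as implied by the ratio of coverage to FPKM in the files. The labelled cell type was checked against 16 cardiomyocyte marker genes, whose summed level was 25335 and 33521 FPKM at E18.5 but between 887 and 1960 FPKM at P7, with P7 replicate 2 the lower. All 12 fibroblast markers rose over the same interval, from a sum of 677 to 687 FPKM to a sum of 4447 to 5413 FPKM. The 7 erythroid markers summed to 29046 and 35395 FPKM at E18.5 and to 11.04 to 11.99 FPKM at P7. Smooth muscle and pericyte markers summed to 478 to 612 FPKM at E18.5 and to 1723 to 1931 FPKM at P7, with 4 of 10 higher and 3 lower. None of these markers was at 0 in every mouse library. The cardiomyocyte and fibroblast differences run alongside every age comparison below, with 16 of 16 cardiomyocyte markers lower and 6 of 12 fibroblast markers higher also at P7 against P1. The erythroid difference separates E18.5 from the later ages, and 0 of the 7 markers were called by limma at P7 against P1. The part of these markers in the results was not tested, and in bulk samples fewer cells of a type and less RNA per cell cannot be told apart. In rat, DMSO replicate 3 and TSA replicate 3 stood apart from the others in several members, and results that rest on them are given with and without them.

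The members together made up 2.78 and 3.29% of all transcripts (TPM) at E18.5 and 0.714 and 0.538% at P7. Of the 9 members, 3 rose and 6 fell from E18.5 to P7 by limma with Benjamini-Hochberg adjustment over all tested genes, where a call needs an adjusted p under 0.05 and a change of more than 1 on the log2(FPKM + 1) scale. All 5 troponin genes and Tpm1 fell, while Tpm2, Tpm3 and Tpm4 rose. Among all genes tested in that comparison, 15.4% were called higher and 12.3% lower. Counts were 3 higher and 2 lower at P1 against E18.5 (10.1% and 6.06% of all genes), 3 higher and 5 lower at P3 against E18.5 (13.0% and 8.88%), and 1 higher and 6 lower at P7 against P1 (3.45% and 5.46%). The 3 comparisons with E18.5 share the same control libraries. The median of all genes stood 0.14 higher on the log2 scale at P7 than at E18.5. With TPM in place of FPKM that median was 0.40, and with median-of-ratios scaling it was -0.01. The share of called genes that were higher moved with the scaling, from 55.7% at P7 to 68.1% with TPM and 45.5% with median-of-ratios. At P1 it was 62.5% against 77.3 and 45.7%, and at P3 59.4% against 74.4 and 45.7%. Under these scalings the direction of every member was as in the FPKM fit at each age. At P1, with median-of-ratios scaling, Tnni3 passed (-1.24, adjusted p = 0.043) and Tpm2 did not (0.83).

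**Figure D1:**
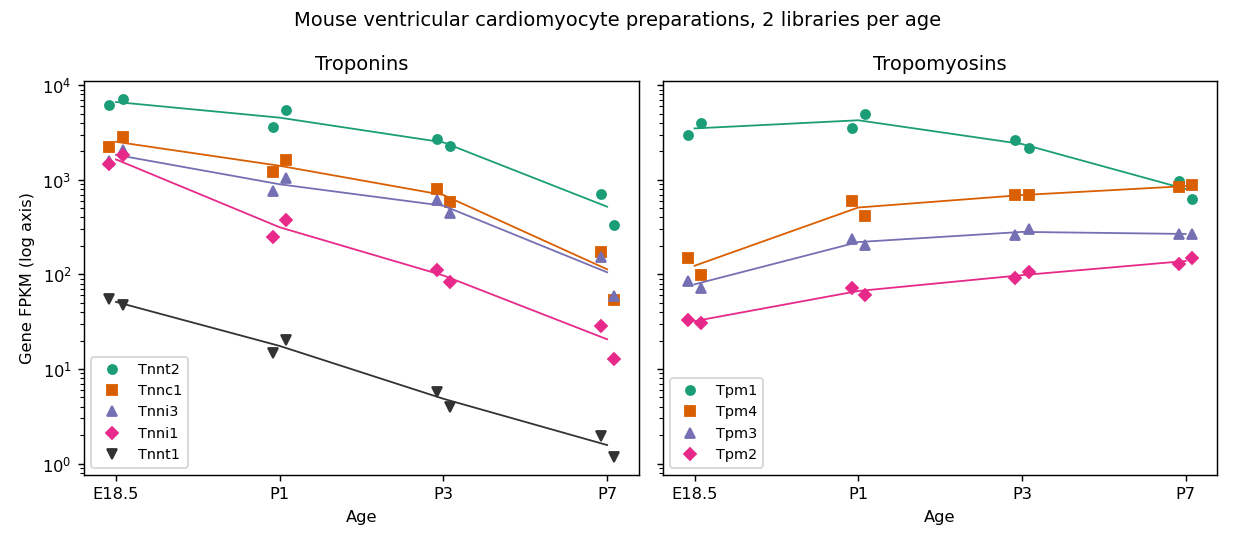
Gene FPKM on a log axis against age in the 8 mouse RNA-seq libraries, with troponin genes on the left and tropomyosin genes on the right. Each point is 1 library and lines join the means of 2 libraries. The 5 troponin genes and Tpm1 are lowest at P7, where Tnnc1 lies at 53.0 and 173 FPKM, while Tpm2, Tpm3 and Tpm4 lie above their E18.5 levels at every later age.

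Troponin C of the heart is made by Tnnc1 (ENSMUSG00000091898.8, chr14:31208312-31211729, plus strand, mm10), which also serves slow skeletal muscle. Its level was 2232 and 2819 FPKM (E18.5), 1201 and 1616 (P1), 802 and 581 (P3) and 173 and 53.0 FPKM (P7). The libraries of each age lay below all libraries of the age before. The difference at P1 did not pass the test (log2 change -0.85 ± 0.47 SE, adjusted p = 0.18), the fall at P3 did (-1.88 ± 0.47, adjusted p = 0.012), and at P7 it was -4.69 ± 0.47 (adjusted p = 0.0001). The P3 call was lost without E18.5 replicate 2 (-1.71, adjusted p = 0.079) and without P3 replicate 2 (-1.64, adjusted p = 0.066). A single transcript, Tnnc1-202, held 97.8% of the gene's FPKM at E18.5 and 98.1% at P7.

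Of the 2 troponin I genes, Tnni1 (ENSMUSG00000026418.16, chr1:135779434-135810989, plus strand) encodes the slow skeletal form that the fetal heart uses. Tnni1 was at 1456 and 1832 FPKM (E18.5), 251 and 380 (P1), 111 and 83.9 (P3) and 28.5 and 12.7 FPKM (P7). It was lower at each age than at the one before with no overlap, and its mean was 79.8-fold lower at P7 than at E18.5. The log2 change was -2.40 ± 0.35 SE at P1 (adjusted p = 0.0014), -4.07 ± 0.35 at P3 (adjusted p = 0.0001) and -6.34 ± 0.35 at P7 (adjusted p = 1.0e-05). Among the members, it had the largest fall in each of the 4 comparisons. Tnni3 (ENSMUSG00000035458.15, chr7:4518305-4524229, minus strand) encodes the cardiac form that remains in the adult. Its level was 1590 and 2090 FPKM (E18.5), 761 and 1034 (P1), 619 and 446 (P3) and 152 and 58.5 FPKM (P7). These levels did not overlap between ages, but the change at P1 did not pass the test (-1.04 ± 0.40, adjusted p = 0.072). Tnni3 fell at P3 (-1.79 ± 0.40, adjusted p = 0.0071), a call lost without E18.5 replicate 2 (-1.60, adjusted p = 0.058), and at P7 (-4.26 ± 0.40, adjusted p = 7.9e-05).

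Because both troponin I genes fell, their ratio describes the isoform exchange. Tnni3 made up 52.2 and 53.3% of the summed Tnni1 and Tnni3 FPKM (E18.5), 75.2 and 73.2% (P1), 84.8 and 84.2% (P3) and 84.2 and 82.2% (P7). The share was higher at P1 than at E18.5 and higher at P3 than at P1, and the P3 and P7 libraries overlapped. It is a ratio within a library and does not depend on the scaling between libraries. Levels of both genes per Tnnc1 FPKM were 1.38 ± 0.018 (SD, n = 2) in E18.5 libraries, then 0.859 ± 0.022 (P1), 0.911 ± 0.0013 (P3) and 1.19 ± 0.21 (P7).

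Troponin T of the heart comes from Tnnt2 (ENSMUSG00000026414.13, chr1:135836354-135852260, plus strand), next to Tnni1 on chromosome 1, and the slow skeletal form comes from Tnnt1 (ENSMUSG00000064179.13, chr7:4504570-4516382, minus strand), next to Tnni3 on chromosome 7. Tnnt2 was the highest member at E18.5, P1 and P3 by mean level, with 6141 and 7172 FPKM (E18.5), 3662 and 5428 (P1), 2678 and 2299 (P3) and 710 and 330 FPKM (P7). Each age lay below the one before, and the change was within the error at P1 (-0.57 ± 0.34, adjusted p = 0.21). Tnnt2 fell at P3 (-1.42 ± 0.34, adjusted p = 0.0096) and at P7 (-3.77 ± 0.34, adjusted p = 6.4e-05). The P3 call was lost without E18.5 replicate 2 (-1.31, adjusted p = 0.070) and without P3 replicate 2 (-1.31, adjusted p = 0.055). Tnnt1 was at 54.9 and 47.6 FPKM (E18.5), 14.9 and 20.1 (P1), 5.73 and 3.96 (P3) and 1.96 and 1.177 FPKM (P7). It fell in all 3 comparisons with E18.5, with a log2 change of -4.36 ± 0.23 at P7 (adjusted p = 8.8e-06), and it never exceeded 0.886% of the summed Tnnt1 and Tnnt2 level. Troponin T FPKM per Tnnc1 FPKM was 2.67 ± 0.15 (SD, n = 2) in E18.5 libraries, then 3.22 ± 0.22 (P1), 3.65 ± 0.43 (P3) and 5.17 ± 1.51 (P7).

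Of the 3 troponin genes of fast or other skeletal muscle that were listed beside them (Tnni2, Tnnt3 and Tnnc2), only Tnni2 passed the filter on low values. The summed level of the 3 was 4.02 to 7.13 FPKM at E18.5 and 0.691 to 0.950 FPKM at P7, and Tnni2 fell (-1.79, adjusted p = 0.0025).

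The main striated tropomyosin gene, Tpm1 (ENSMUSG00000032366.15, chr9:67022590-67049406, minus strand), was at 3015 and 3980 FPKM (E18.5), 3539 and 4993 (P1), 2621 and 2166 (P3) and 965 and 635 FPKM (P7). E18.5 and P1 libraries overlapped, and neither P1 (0.28 ± 0.26, adjusted p = 0.42) nor P3 (-0.54 ± 0.26, adjusted p = 0.12) passed the test against E18.5. Tpm1 fell at P7 (-2.14 ± 0.26, adjusted p = 0.00025), by less than any troponin gene. Tpm2 (ENSMUSG00000028464.16, chr4:43514711-43523765, minus strand), which encodes beta tropomyosin, was at 33.1 and 31.0 FPKM (E18.5), 72.7 and 61.0 (P1), 91.2 and 105 (P3) and 129 and 148 FPKM (P7). Its levels rose without overlap at every step, by 2.07 ± 0.14 on the log2 scale at P7 against E18.5 (adjusted p = 2.3e-05) and by 1.04 ± 0.14 at P7 against P1 (adjusted p = 0.0022). The smallest of its changes, at P1 (1.03 ± 0.14, adjusted p = 0.001) and from P1 to P7, lay close to the limit of 1 and slipped under it without E18.5 replicate 2 (0.98) or P1 replicate 1 (0.91), and without P1 replicate 2 (0.92) or P7 replicate 2 (0.95), respectively.

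Tpm3 (ENSMUSG00000027940.18, chr3:90072649-90100902, plus strand) encodes the slow skeletal alpha tropomyosin from its upstream start and cytoplasmic forms from an internal start. Its level was 85.6 and 71.5 FPKM (E18.5), 234 and 206 (P1), 262 and 301 (P3) and 266 and 270 FPKM (P7). Most of its rise was present at P1 (1.48 ± 0.14, adjusted p = 0.00021), and P7 against P1 did not pass (0.29 ± 0.14, adjusted p = 0.21). Tpm4 (ENSMUSG00000031799.9, chr8:72134975-72153142, plus strand), a cytoplasmic tropomyosin, was at 149 and 98.3 FPKM (E18.5), 604 and 416 (P1), 684 and 698 (P3) and 833 and 884 FPKM (P7). It had the largest rise of the members, 2.04 ± 0.23 at P1 (adjusted p = 0.00042), 2.504 ± 0.23 at P3 (adjusted p = 0.00012) and 2.82 ± 0.23 at P7 (adjusted p = 3.9e-05). From P1 to P7 its difference was 0.77 ± 0.23 (adjusted p = 0.049), under the limit of 1, and it passed only without P1 replicate 1 (1.04, adjusted p = 0.022).

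At E18.5 the order of the mean levels was Tnnt2, Tpm1, Tnnc1, Tnni3, Tnni1, Tpm4, Tpm3, Tnnt1 and Tpm2, and only the neighbours Tnni3 and Tnni1 overlapped. At P7 the order was Tpm4, Tpm1, Tnnt2, Tpm3, Tpm2, Tnnc1, Tnni3, Tnni1 and Tnnt1. There Tpm4 lay between both Tpm1 libraries, Tpm1 overlapped Tnnt2, and Tpm2, Tnnc1 and Tnni3 overlapped each other. Tpm1 made up 91.9 and 95.2% of the summed tropomyosin FPKM (E18.5), 79.5 and 88.0% (P1), 71.6 and 66.2% (P3) and 44.0 and 32.8% (P7). Over the same ages the share of Tpm4 went from 3.44% ± 1.54 (SD, n = 2) to 10.5% ± 4.42, 20.0% ± 1.87 and 41.8% ± 5.43. Tpm3 reached 13.03% ± 1.26 and Tpm2 6.77% ± 1.25 at P7. As these are shares of a sum, a fall of Tpm1 alone would also raise the others.

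The 16 cardiomyocyte markers fell together with the troponins. All 16 were lower at P7 than at E18.5, with a median log2 change of -4.37 against a median of 0.14 over all genes. Set against the mean of these markers in the same library, a scaling chosen after the data were seen, the P7 change of Tnnc1 was -0.07, of Tnni3 0.36, of Tnnt1 0.26 and of Tnnt2 0.84. These 4 genes thus moved by less than 1 relative to the markers, and none of the 4 passed the test in that scaling. Tnni1 was the exception among the troponins, at -1.73 (adjusted p = 0.0017). Of all 13979 genes, 13886 were called on this scale, 13879 of them higher. On the same scale Tpm1 was at 2.47, Tpm2 at 6.69, Tpm3 at 6.38 and Tpm4 at 7.44, where the median of all genes was 4.76. Tpm1 therefore turned from lower to higher with the choice of reference, as did Tnni3, Tnnt1 and Tnnt2.

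Most of the named protein isoforms could be told apart, since transcripts were matched to RefSeq proteins with the same coding exons. Tpm1.1st, the striated form, made up 84.1 and 87.8% of Tpm1 FPKM (E18.5), 67.0 and 74.7% (P1), 62.0 and 61.2% (P3) and 37.7 and 22.4% (P7). No age overlapped the one before. The test used the log2 ratio of a transcript to the other transcripts of its gene, with 1 added to both levels, and the transcript Tpm1-205 of this form fell by 3.88 ± 0.45 from E18.5 to P7 (adjusted p = 0.011). That call was lost without E18.5 replicate 2 (adjusted p = 0.061) or P7 replicate 2 (adjusted p = 0.055). Tpm1.6cy, a cytoplasmic form, went the other way, from 3.87 and 1.72% to 28.8 and 28.2% (change in the ratio 3.89 ± 0.44, adjusted p = 0.010). Its call was lost without P7 replicate 1 (adjusted p = 0.053) or P7 replicate 2 (adjusted p = 0.065). Tpm1.2st went from 0.215 and 0.0863% to 10.5 and 18.6% (6.63 ± 0.51, adjusted p = 0.0057). In absolute terms, Tpm1.1st was at 2536 and 3497 FPKM (E18.5), 2373 and 3730 (P1), 1625 and 1325 (P3) and 364 and 142 FPKM (P7). Tpm1.6cy was at 117 and 68.6 FPKM (E18.5), 464 and 457 (P1), 424 and 384 (P3) and 278 and 179 FPKM (P7). Its level was thus highest at P1 and lower at P7, while its share of Tpm1 was highest at P7.

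Tpm2 changed isoform early. Tpm2.2st, its striated form, made up 72.7 and 55.8% of Tpm2 at E18.5, 11.9 and 12.7% at P1, and 6.25 and 7.66% at P7. The smooth muscle and cytoplasmic form Tpm2.1sm/cy went from 13.7 and 23.7% to 79.9 and 75.5% at P1 and to 87.2 and 82.0% at P7. Both changes passed at P7 (Tpm2-202 -4.43 ± 0.39, adjusted p = 0.0062; Tpm2-203 4.41 ± 0.43, adjusted p = 0.0075). The rise of Tpm2 was therefore carried by Tpm2.1sm/cy, from 4.53 and 7.35 FPKM to 113 and 121 FPKM, while Tpm2.2st was at 24.1 and 17.3 FPKM at E18.5 and 8.07 and 11.3 FPKM at P7. Tpm3 was mostly Tpm3.1cy at every age, with 69.8 and 67.58% at E18.5 and 90.2 and 87.5% at P7 (1.86 ± 0.61, adjusted p = 0.13). A further Tpm2 transcript without a matching protein, Tpm2-201, held 13.9% ± 4.83 (SD, n = 2) of the gene at E18.5 and its relative use fell to P7 (-2.31 ± 0.36, adjusted p = 0.021), and Tpm3-202, of Tpm3.3cy, held 14.1% ± 0.657 at E18.5 (-1.64 ± 0.41, adjusted p = 0.067). Tpm4 had a single form, with a mean of 99.7 to 99.9% of its FPKM at each age.

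Summed over the genes, RefSeq isoforms named striated (Tpm1.1st, Tpm1.2st and Tpm2.2st) held 78.2 and 84.1% of all tropomyosin FPKM (E18.5), 54.8 and 66.8% (P1), 46.6 and 43.4% (P3) and 21.6 and 14.04% (P7). Of the 473 and 272 FPKM of these striated forms at P7, 101 and 118 FPKM were Tpm1.2st, against 6.48 and 3.43 FPKM at E18.5. Tpm1.2st carries the first 126-base exon described below and lacks the 79-base exon of Tpm1.1st. The named class thus joins forms that moved in opposite directions. The level of cytoplasmic and smooth muscle forms of Tpm1 to Tpm3 was 211 and 158 FPKM (E18.5), 775 and 688 (P1), 784 and 720 (P3) and 688 and 607 FPKM (P7). These forms held 6.42 and 3.77% of tropomyosin FPKM at E18.5 and 31.4 and 31.3% at P7. Fibroblast markers and the summed smooth muscle and pericyte level were higher at P7 as well (values above), though 3 of the 10 smooth muscle and pericyte genes were lower, and their part in these shares was not tested. Transcripts without a matching RefSeq protein held between 8.08 and 13.5% of tropomyosin FPKM in each library.

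**Figure D2:**
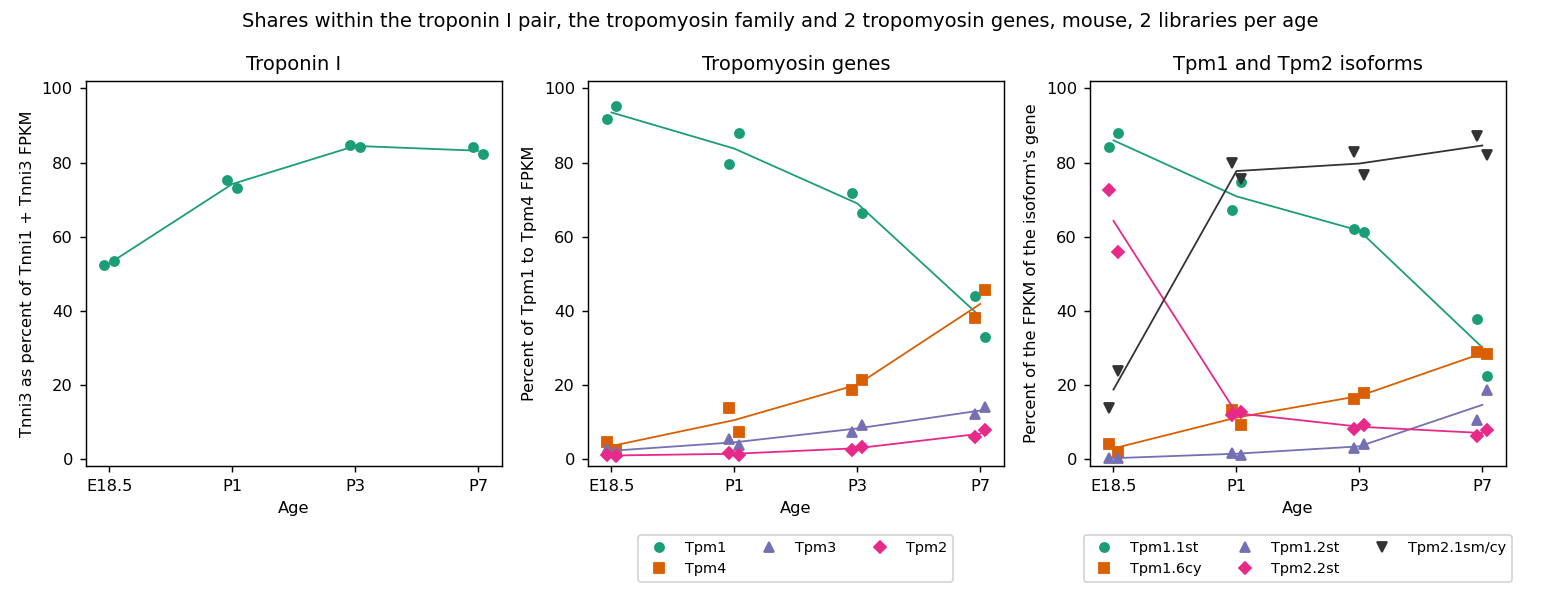
Percent shares against age in the mouse libraries, with points for the 2 libraries of an age and lines through their means. The left panel gives Tnni3 as a share of both troponin I genes, the middle panel each tropomyosin gene as a share of the 4, and the right panel named isoforms as a share of their own gene. Tnni3 lies between 82.2 and 84.8% from P3, Tpm1 falls to 44.0 and 32.8% of the family at P7, and Tpm2.2st and Tpm2.1sm/cy cross between E18.5 and P1.

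Across all members, 30 of 75 tested transcripts were called changed in relative use from E18.5 to P7, against 7.72% of all transcripts tested. With 0.1 in place of 1 as the added constant 10 of the members' transcripts passed, 6 of Tpm1, 2 of Tpm2 and 2 of Tpm3, and none of a troponin gene. The share of all transcripts that passed with 0.1 is not given here. The main transcript of Tnni1 (Tnni1-207) did not pass (0.29 ± 0.25, adjusted p = 0.54), nor did that of Tnni3 (Tnni3-201, -1.72 ± 1.21, adjusted p = 0.44). The count of 30 fell to 16, 9, 15 and 5 without E18.5 replicate 1, E18.5 replicate 2, P7 replicate 1 and P7 replicate 2.

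Alternative exons show where in each gene the change lies. Inclusion is the share of FPKM from transcripts that carry an exon among those that span it. Of 60 tested exons of the members, 23 were called changed from E18.5 to P7, against 7.9% of all exons tested. Of the 23, 6 passed also with 0.1 as the added constant, 4 in Tpm1 and 2 in Tpm2. The share of all exons that passed with 0.1 is not given here. By gene, the 23 were 6 in Tnni1, 5 in Tpm1, 4 in Tnnt1, 4 in Tpm3, 2 in Tpm2, 1 in Tnni3 and 1 in Tnnt2. None of the calls in Tnni1, Tnnt1, Tpm3, Tnni3 and Tnnt2 passed with 0.1. The mean level of Tnni1 went from 1644 to 20.6 FPKM between these ages. Only exons whose inclusion differed by at least 10 percentage points between ages are named below, and no Tnni1 exon is among them. The count of 23 was 13, 11, 12 and 7 without E18.5 replicate 1, E18.5 replicate 2, P7 replicate 1 and P7 replicate 2. Since StringTie divides reads among annotated transcripts, these values are estimates from whole transcripts and not counts of reads across a junction.

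Tpm2 and Tpm3 each hold a pair of 76-base exons of which a transcript uses 1. They are shown because these pairs separate the striated from the cytoplasmic or smooth muscle form of Tpm2 and the Tpm2 pair includes an exon that passed the test already at P1. Capitals mark bases that differ between both exons of a pair, on the transcribed strand in mm10. The Tpm2 exons lie at chr4:43519003-43519078 (first) and chr4:43518644-43518719 (second), minus strand, and the Tpm3 exons at chr3:90088401-90088476 (first) and chr3:90089048-90089123 (second), plus strand.
Tpm2 first 76-base exon: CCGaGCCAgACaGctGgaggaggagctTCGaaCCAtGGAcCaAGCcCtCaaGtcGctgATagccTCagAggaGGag
Tpm2 second 76-base exon: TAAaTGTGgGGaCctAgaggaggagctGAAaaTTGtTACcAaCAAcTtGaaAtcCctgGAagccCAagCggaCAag
Tpm3 first 76-base exon: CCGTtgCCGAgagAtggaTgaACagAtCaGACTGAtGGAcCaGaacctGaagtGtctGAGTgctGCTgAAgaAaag
Tpm3 second 76-base exon: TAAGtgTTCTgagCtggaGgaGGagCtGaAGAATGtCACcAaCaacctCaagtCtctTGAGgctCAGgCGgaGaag

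The Tpm2 pair was alike at 41 of 76 bases (53.9%) and the Tpm3 pair at 39 of 76 (51.3%). The second exon of Tpm2, which is in Tpm2.2st, was included in 64.5% ± 11.9 (SD, n = 2) of Tpm2 in E18.5 libraries, then 12.4% ± 0.522 (P1), 8.71% ± 0.834 (P3) and 7.00% ± 0.982 (P7). Its inclusion fell at P1 already (-3.51 ± 0.40, adjusted p = 0.036) and by 4.44 ± 0.40 on the log2 scale at P7 (adjusted p = 0.0075). The first exon rose from 32.7% ± 11.998 to 88.1% ± 3.20 at P7 (3.85 ± 0.45, adjusted p = 0.011), a call lost without P7 replicate 1 (adjusted p = 0.058) or P7 replicate 2 (adjusted p = 0.057). The first Tpm3 exon, carried by Tpm3.1cy, went from 71.8% ± 0.836 to 90.8% ± 2.25, and the second, carried by Tpm3.3cy and Tpm3.4cy, from 18.3% ± 2.13 to 5.53% ± 0.518. A 79-base exon of Tpm3.3cy (chr3:90091013-90091091) went from 18.7% ± 1.177 to 5.52% ± 0.346. The 3 Tpm3 exons passed at P7 (adjusted p = 0.033, 0.031 and 0.024) but not with an added constant of 0.1 (adjusted p = 0.089, 0.093 and 0.080), nor without any 1 of the 4 libraries (adjusted p from 0.082 to 0.14).

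Tpm1 has an internal pair of 126-base exons, of which the second is in Tpm1.1st and the first in Tpm1.2st. They are shown because their use shifted by P7. Both lie on the minus strand, at chr9:67048124-67048249 (first) and chr9:67047786-67047911 (second), and capitals again mark the bases that differ.
Tpm1 first 126-base exon: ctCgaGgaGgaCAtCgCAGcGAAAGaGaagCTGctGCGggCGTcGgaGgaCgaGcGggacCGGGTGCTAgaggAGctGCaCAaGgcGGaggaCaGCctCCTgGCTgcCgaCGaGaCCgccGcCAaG
Tpm1 second 126-base exon: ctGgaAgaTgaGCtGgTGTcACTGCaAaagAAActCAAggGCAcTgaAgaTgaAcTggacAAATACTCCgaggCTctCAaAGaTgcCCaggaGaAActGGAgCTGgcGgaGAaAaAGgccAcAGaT

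Both exons were alike at 60 of 126 bases (47.6%). The second was included in 99.0% ± 0.573 (SD, n = 2) of spanning Tpm1 in E18.5 libraries, then 97.1% ± 0.695 (P1), 94.8% ± 0.998 (P3) and 79.8% ± 7.88 (P7), with a log2 change of -4.68 ± 0.52 (adjusted p = 0.010) that was lost without P7 replicate 2 (adjusted p = 0.061). The first rose from 1.46% ± 0.539 to 26.5% ± 10.1 (4.59 ± 0.46, adjusted p = 0.0085). A 79-base exon near the end of the gene (chr9:67029664-67029742), found in Tpm1.1st and Tpm1.5cy, fell from 89.5% ± 2.79 (E18.5) to 73.9% ± 5.81 (P1), 64.0% ± 0.313 (P3) and 31.3% ± 11.2 (P7) (-4.28 ± 0.46, adjusted p = 0.0092), and this call was lost without E18.5 replicate 2 (adjusted p = 0.054).

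The 3 short exons of Tnnt2 are those whose inclusion is known to be developmentally regulated in the heart or to mark its isoforms, and they are shown with 15 intron bases on each side, the exon in capitals. They lie on the plus strand at chr1:135842015-135842026, chr1:135843785-135843814 and chr1:135850379-135850387.
Tnnt2 12-base exon: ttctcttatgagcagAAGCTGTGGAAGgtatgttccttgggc
Tnnt2 30-base exon: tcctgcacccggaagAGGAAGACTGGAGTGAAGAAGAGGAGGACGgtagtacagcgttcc
Tnnt2 9-base exon: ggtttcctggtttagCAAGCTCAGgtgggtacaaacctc

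The 30-base exon, known to be included in the embryonic heart and carried by isoforms a and b, was included in 72.8% ± 1.74 (SD, n = 2) of Tnnt2 in E18.5 libraries, then 57.3% ± 1.51 (P1), 52.9% ± 2.41 (P3) and 56.1% ± 3.41 (P7). The change to P7 did not pass the test (-1.07 ± 0.28, adjusted p = 0.068). Inclusion of the 12-base exon, in isoforms a and d, was 76.04% ± 2.02 and 68.1% ± 2.77 (-0.58 ± 0.27, adjusted p = 0.24), and that of the 9-base exon, in isoforms b, d and e, was 28.6% ± 2.08 and 43.8% ± 3.98 (0.96 ± 0.30, adjusted p = 0.10). A further 52-base exon at chr1:135840861-135840912, which is only partly coding, rose from 71.0% ± 2.77 to 87.0% ± 1.04 (1.37 ± 0.24, adjusted p = 0.028), a call lost with 0.1 as the added constant (adjusted p = 0.090), and without any 1 of the 4 libraries (adjusted p from 0.082 to 0.12). In isoforms, form a made up 67.1 and 70.2% at E18.5 and 52.4 and 57.1% at P7, form e 19.4 and 17.2% and then 29.996 and 26.7%, and form d 5.71 and 5.41% and then 12.78 and 12.05%. Of the 15 Tnnt2 transcripts tested 3 passed, and among those with at least 10% of the gene the form d transcript Tnnt2-206 was the only one (1.31 ± 0.22, adjusted p = 0.026), but not with 0.1 as the added constant (adjusted p = 0.12), nor without any 1 of the 4 libraries (adjusted p from 0.097 to 0.11).

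In Tnnt1, whose level was under 2 FPKM at P7, 4 of 8 tested exons passed at P7, of which 3 differed in inclusion by at least 10 percentage points between ages. Inclusion of a 110-base exon (chr7:4508474-4508583) went from 96.9% ± 2.32 to 82.7% ± 0.960 (SD, n = 2; log2 change -3.30 ± 0.38, adjusted p = 0.010), that of its 152-base alternative (chr7:4508474-4508625) from 3.12% ± 2.32 to 17.3% ± 0.960, and that of a 78-base exon (chr7:4509558-4509635) from 96.9% ± 1.65 to 84.8% ± 1.39 (-3.42 ± 0.36, adjusted p = 0.0092). None of the 3 passed with 0.1 as the added constant (adjusted p from 0.11 to 0.12), and each call was lost without P7 replicate 2. A 33-base exon (85.6% ± 3.37 and 85.7% ± 14.2) and a 43-base exon (57.7% ± 2.71 and 71.4% ± 10.9) did not pass. No Tnnt1 transcript held more than 31.7% of the gene by mean. Of the 7 transcripts with at least 10% of Tnnt1 at some age, 3 passed at P7 (adjusted p = 0.040, 0.016 and 0.0077), none of them with 0.1 (adjusted p = 0.24, 0.33 and 0.085), and 4 did not pass (adjusted p from 0.076 to 0.32). A 137-base exon of Tnni3 (chr7:4522305-4522441) was at 16.6% in P3 replicate 1 and 25.1% in P7 replicate 2 but under 1% in the other 6 libraries, and its change did not pass (3.99 ± 1.96, adjusted p = 0.26). Tnni3-205, which has no matching protein, likewise held 24.9% of the gene in P7 replicate 2 and 0.337% in P7 replicate 1.

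**Figure D3:**
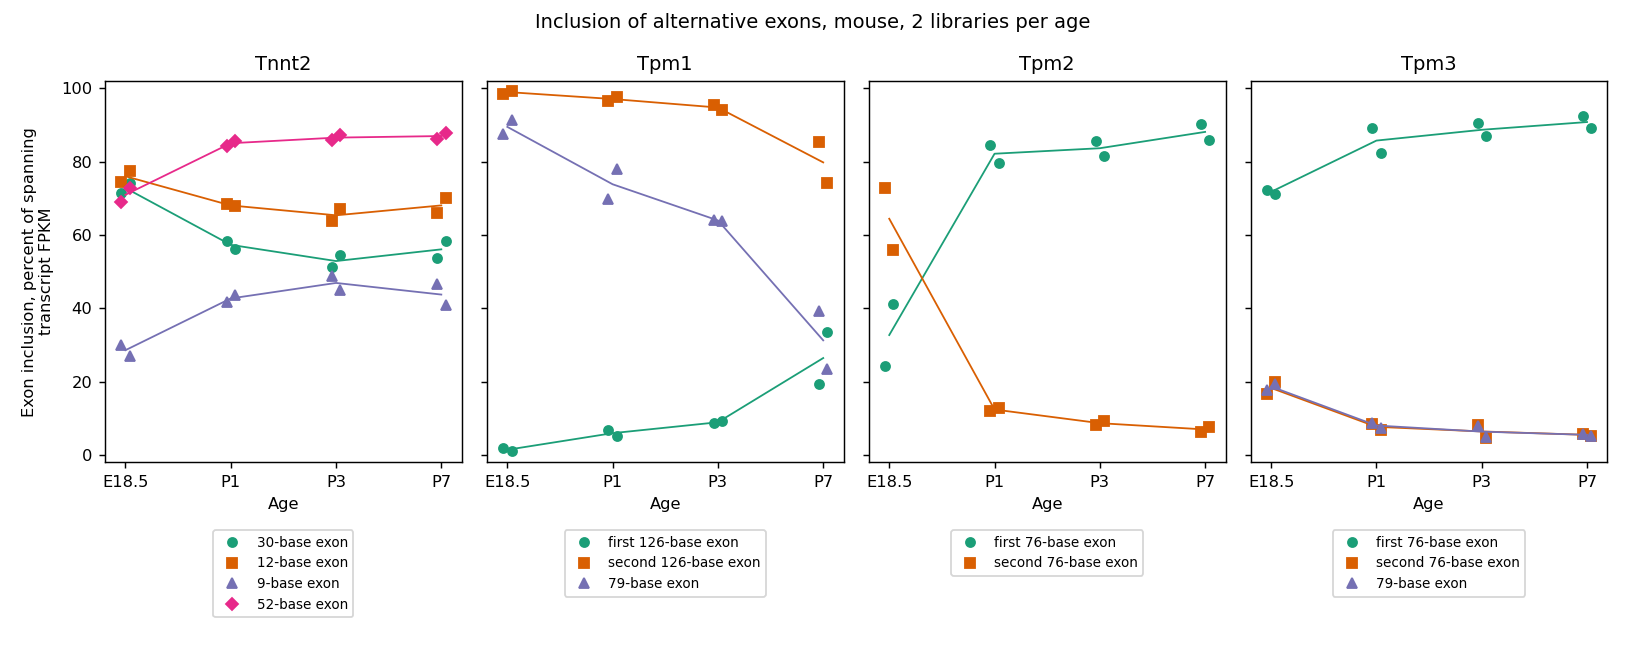
Inclusion in percent against age of alternative exons of Tnnt2, Tpm1, Tpm2 and Tpm3 in the mouse libraries, with points for the 2 libraries of an age and lines through their means. First and second name the order along the transcript within a pair. The Tpm2 pair crosses between E18.5 and P1, the Tpm1 exons shift mainly between P3 and P7, and Tnnt2 exons shift by less, the 30-base exon from 72.8 to 56.1%.

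Accessible promoters were described from the authors' ATAC-seq peaks, taking peaks whose nearest edge lay within 2.5 kb of a transcript start. Lists differed from 13149 peaks at E18.5 replicate 1 to 95257 at P3 replicate 1. In E18.5 replicates 1 and 2, 5 and 6 of the 9 members had such a peak, where 67.1 and 62.4% of all tested genes did. At P1 it was 9 members in replicate 1 and 5 in replicate 2 (69.2 and 43.0% of all genes). All 9 members had a peak in both P3 libraries (91.7 and 87.7% of all genes) and in both P7 libraries (86.5 and 85.5%). Tnni3 and Tpm2 lacked a peak in both E18.5 libraries and P1 replicate 2, as Tnnt1 did in the E18.5 libraries, Tnnc1 in E18.5 replicate 1 and P1 replicate 2, and Tpm4 in P1 replicate 2. These 3 libraries also had the fewest peaks, and the part of peak number in the missing peaks was not tested. Tnni1, Tnnt2, Tpm1 and Tpm3 had a peak in all 8 libraries. With equal numbers of top peaks per library only 1 member did, Tpm3. In that setting 5 and 5 members had a peak at E18.5 (67.1 and 58.8% of all genes) and 8 and 4 at P1 (48.8 and 35.5%). At P3 it was 1 and 3 members (40.8 and 52.7% of all genes), and at P7 it was 3 and 5 (48.8 and 64.0%). With the full lists and a limit of 1 kb in place of 2.5 kb, 7 and 7 members had a peak at P3 (88.9 and 84.8% of all genes). At P7 it was then 7 and 8 (83.3 and 83.1%). In the P3 and P7 libraries Tnnc1 had no peak within 1 kb, and Tnni3 had 1 only in P7 replicate 2.

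In the full peak lists, a peak was called at Tnni1 and Tnnt2 at every age although their levels fell. With equal numbers of top peaks, Tnnt2 had none in the P3 and P7 libraries. In that setting Tnni1 had none in P1 replicate 2, both P3 libraries and P7 replicate 2. The Tnni1 peak (merged region chr1:135800166-135800995, inside the gene) was called in all 8 libraries with its summit a median of 775 bases after the nearest start, and the gene's best peak was 6.03 and 6.07-fold enriched at E18.5 and 6.28 and 3.95-fold at P7. The Tnnt2 peak spanned the upstream start (chr1:135835916-135836521), with 5.71 and 4.27-fold at E18.5 and 3.80 and 3.53-fold at P7. Transcripts from that start held only 18.7% of Tnnt2 FPKM at E18.5 and 24.3% at P7, while starts about chr1:135840699-135840875 held 79.3 and 74.5% and had a peak nearby in P3 replicate 1 alone. At Tnni3 the region called in 5 libraries lay upstream (chr7:4526272-4526806), with a peak at the start itself in 2, and at Tnnc1 most peaks were away from the start, the exception being P1 replicate 1. At Tnnt1 the region called in 5 libraries lay inside the gene (chr7:4509949-4510258). With only the start of the most abundant transcript, Tnnt1 had no peak in any library. In that setting 7 and 6 members had a peak at P3 (88.1 and 83.1% of all genes) and 6 and 7 at P7 (81.7 and 80.7%).

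Both start regions of Tpm1 were accessible in all 8 libraries (chr9:67048802-67050098 and chr9:67043497-67044189). The upstream group of 13 transcripts held 99.0% of Tpm1 FPKM before birth and 91.0% at P7, whereas the internal group of 7 held 0.650% and 8.74%. Tpm3 had a peak at its internal start in all 8 libraries (chr3:90079257-90080668), with fold enrichment between 4.56 and 10.5. This peak ranked in the top 3.62% of peaks by score in each P3 and P7 library. A further region, 510 bases from a minor start inside the gene (chr3:90085342-90085861), was called in both P3 libraries and P7 replicate 1. No peak was called at the upstream start in any library, and transcripts from there held 1.79% of Tpm3 FPKM at E18.5 and 0.172% at P7.

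**Figure D4:**
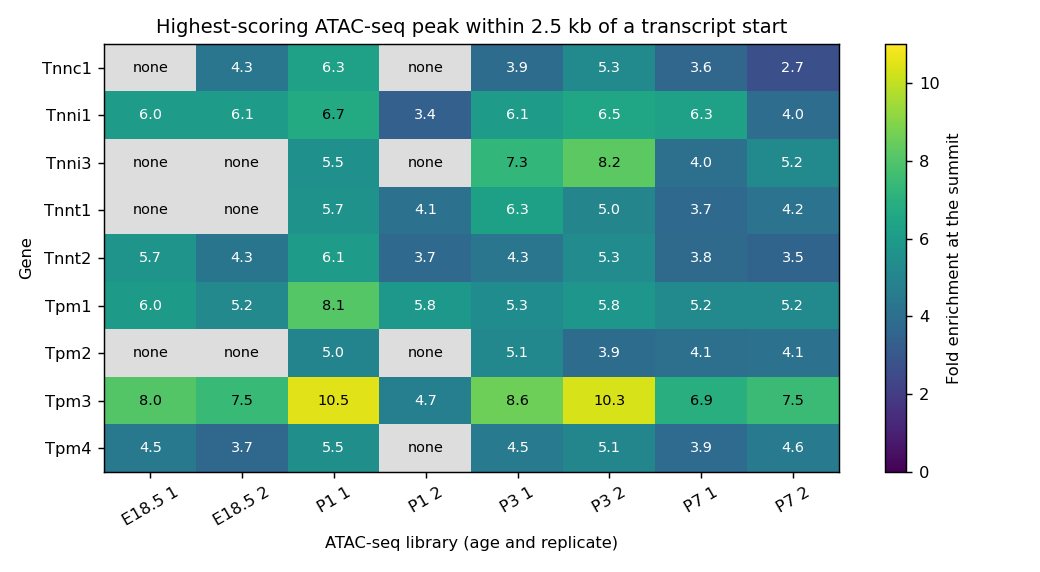
Fold enrichment at the summit, by colour and number, of the highest-scoring ATAC-seq peak within 2.5 kb of a transcript start, for 9 genes (rows) in 8 libraries (columns). Grey cells marked none had no such peak. Tpm3 has the highest value of its column in 7 of the 8 libraries, up to 10.5 in P1 replicate 1, and the grey cells lie in both E18.5 libraries and P1 replicate 2.

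Promoter sequences (RefSeq, GRCm38.p6, 250 bases before to 50 after a start) are shown for Tpm3, which had a peak at its internal start in all 8 libraries and none at its upstream start, and for the members that share a motif. All 9 members matched, with 12 promoters. The letters CATTCC, on either strand, are the core of the MCAT element known from the cardiac troponin T promoter, which TEAD factors bind, and they occur in 3 of the 12, in 14.7% of 32851 promoters of the table. In the first 3 sequences capitals mark those letters, starting 27 bases before the Tnnt2 start, 58 before the Tnnc1 start and 56 before the Tpm1 start. In the 2 Tpm3 promoters capitals mark CG dinucleotides. Positions are chr1:135836084-135836383 (Tnnt2, plus strand), chr14:31208062-31208361 (Tnnc1, plus), chr9:67049164-67049463 (Tpm1, minus), chr3:90072401-90072700 (Tpm3 upstream, plus) and chr3:90079271-90079570 (Tpm3 internal, plus).
Tnnt2 promoter: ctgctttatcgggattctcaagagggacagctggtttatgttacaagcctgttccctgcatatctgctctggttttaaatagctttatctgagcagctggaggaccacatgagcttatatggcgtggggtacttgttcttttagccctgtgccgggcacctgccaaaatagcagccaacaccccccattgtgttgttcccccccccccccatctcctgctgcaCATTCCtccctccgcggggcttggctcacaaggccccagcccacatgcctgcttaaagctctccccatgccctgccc
Tnnc1 promoter: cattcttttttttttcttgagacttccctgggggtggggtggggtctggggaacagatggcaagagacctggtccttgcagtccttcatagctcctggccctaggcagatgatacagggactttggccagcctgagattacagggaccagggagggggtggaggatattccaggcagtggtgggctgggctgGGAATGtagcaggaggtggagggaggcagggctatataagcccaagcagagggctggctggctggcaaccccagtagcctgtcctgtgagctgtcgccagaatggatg
Tpm1 promoter: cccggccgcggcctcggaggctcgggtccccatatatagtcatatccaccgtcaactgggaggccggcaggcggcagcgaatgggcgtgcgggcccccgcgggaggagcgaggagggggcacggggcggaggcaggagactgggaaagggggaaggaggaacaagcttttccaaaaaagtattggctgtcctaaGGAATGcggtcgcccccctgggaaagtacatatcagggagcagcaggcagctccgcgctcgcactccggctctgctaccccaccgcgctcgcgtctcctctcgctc
Tpm3 upstream promoter: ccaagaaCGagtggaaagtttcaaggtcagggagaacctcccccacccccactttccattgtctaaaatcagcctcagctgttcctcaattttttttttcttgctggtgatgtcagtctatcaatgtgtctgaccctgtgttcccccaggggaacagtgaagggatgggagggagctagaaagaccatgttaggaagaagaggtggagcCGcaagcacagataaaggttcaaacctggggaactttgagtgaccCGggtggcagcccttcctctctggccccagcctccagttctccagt
Tpm3 internal promoter: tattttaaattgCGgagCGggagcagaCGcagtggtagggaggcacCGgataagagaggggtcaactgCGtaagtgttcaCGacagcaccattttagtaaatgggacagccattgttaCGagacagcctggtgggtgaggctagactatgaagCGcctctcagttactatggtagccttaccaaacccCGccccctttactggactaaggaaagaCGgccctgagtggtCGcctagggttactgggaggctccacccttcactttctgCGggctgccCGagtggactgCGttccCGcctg

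The Tpm3 promoters held 3 CG dinucleotides upstream and 15 at the internal start, where a peak was called in all 8 libraries. Over the members, Tpm4 (31), Tpm1 (27) and Tpm2 (20) had the most, and the troponin promoters had 1 to 6, all under the median of 7 over all promoters. TATAAA was found in 1 member promoter (Tnnt1) and in 13.6% of all promoters. Neither the CArG box nor the MEF2 motif occurred in any of the 12, and they were in 1.63 and 3.19% of all promoters. Such matches are letters in a window and not evidence of binding.

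Partners of the thin and thick filament fell as the troponins did. Of 20 tested partners (of 21 listed, among them Actc1, Myh6, Myl2 and Ttn), all 20 fell from E18.5 to P7, with a median of -4.23, and the largest falls were of Myh7, the slow myosin heavy chain (-7.98), and Myl3, a ventricular light chain (-5.64). Several of these genes are also in the cardiomyocyte marker list. Of 14 tested splicing regulators, 3 fell and none rose, led by Rbm24 (-4.32 ± 0.32) and Rbm20 (-3.97 ± 0.36), which regulate splicing of sarcomere transcripts in the heart, with a list median of -0.27. Among all genes 12.3% were called lower in that comparison and 15.4% higher. Of 13 tested cardiac transcription regulators, 6 fell and none rose, led by Nkx2-5 (-3.41 ± 0.36) and Myocd (-1.95 ± 0.19), against the same 12.3%. Adjusted p for these 4 genes lay between 3.0e-05 and 0.00013.

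The genes most alike in pattern were taken as the 3 with the highest Pearson correlation of log2(FPKM + 1) over the 8 mouse libraries, which all points share. For Tnnc1 these were Smpx, Tnni3 and Tnnt2 (r = 0.999, 0.998 and 0.997), for Tnni3 they were Myl3, Smpx and Tnnc1, and for Tnnt2 they were Tnni3k, Trim55 and Mybpc3. Tnni1 was closest to Ckm, Acadm and Ppif (r = 0.999 to 0.998) and Tnnt1 to Zscan2, Ccl27a and Camk2a. Tpm1 was closest to Kcnh2, Epn3 and Slc2a4 (r = 0.996), Tpm2 to Pdia5, Srgap3 and Fbn1, Tpm3 to Lhfp, Dennd2a and Zfp365, and Tpm4 to Tagln2 (r = 0.999), S1pr2 and Nudcd1.

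In the rat cells the question was whether TSA changes these genes. None of the 9 members passed the test (limma, adjusted p under 0.05 and a change over 1), against 2.13% of all genes tested, and 1 member had an unadjusted p under 0.05. Tpm4 was that gene, at 304, 264 and 462 FPKM with DMSO and 214, 222 and 230 FPKM with TSA. Every TSA library lay below every DMSO library, and the log2 change was -0.59 ± 0.20 (95% interval -1.07 to -0.10, adjusted p = 0.17, exact permutation p = 0.1, the smallest that 3 against 3 libraries can give, two-sided). The change was -0.35 without DMSO replicate 3 and -0.38 without both replicates 3. Fibroblast markers summed to 8090 to 8911 FPKM with DMSO and 5038 to 7779 FPKM with TSA. Of 11 tested, 0 were called higher and 0 lower, with a median log2 change of -0.21. Smooth muscle and pericyte markers summed to 923 to 2419 and 683 to 1646 FPKM, which overlap. Of 10 tested, 1 was called higher (Rgs5, 1.80) and 0 lower, with a median of -0.07. The part of these markers in the Tpm4 difference was not tested.

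Tnni3 was at 849, 849 and 496 FPKM with DMSO and 976, 864 and 936 FPKM with TSA, also without overlap (0.38 ± 0.22, adjusted p = 0.41, exact permutation p = 0.1). The change was 0.12 without DMSO replicate 3 and 0.11 without both replicates 3. Tnni1 was at 1032, 1268 and 874 FPKM with DMSO and 1423, 1374 and 1114 FPKM with TSA, where the groups overlapped. The labels do not say whether same-numbered rat libraries share a preparation, and the fit and the permutation p treat them as unpaired. Taken as pairs by number, Tnni1, Tnni3 and Tpm1 were higher with TSA in 3 of 3 and Tpm4 was lower in 3 of 3. The other members differed in direction between pairs. Tnni3 made up 40.5% ± 4.47 (SD, n = 3) of both troponin I genes with DMSO and 41.7% ± 3.62 with TSA. Tnnt2 stood at 2396, 2671 and 2326 FPKM and at 2931, 2443 and 2742 FPKM (0.13 ± 0.13, 95% interval -0.18 to 0.45). Tnnc1 and Tpm1 were highest in TSA replicate 3, at 1826 and 3234 FPKM, and the difference of Tnnc1 changed sign without that library, from 0.07 to -0.24. That of Tpm1 went from 0.30 to 0.034 without TSA replicate 3 and to 0.15 without both replicates 3. Tpm2 was highest in replicate 3 of each treatment (472 FPKM with DMSO and 438 FPKM with TSA). Its difference was 0.18, and without both replicates 3 it was 0.33 (limma, adjusted p = 0.017), under the limit of 1. Tpm3 lay between 97.3 and 116 FPKM in all 6. Tnnt1 was at 1.00 to 3.97 FPKM, with a difference of 0.20 that was 0.45 without both replicates 3. The 95% intervals of the 9 changes all lay between -1.07 and 1.07 on the log2 scale. With 3 libraries per treatment, changes of any size within a gene's own interval remain compatible with these values.

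Isoform use in rat was likewise below the threshold. No transcript of the 21 tested passed (0.157% of all transcripts did, and 5 of the 21 had an unadjusted p under 0.05 by limma), and no exon of 20 did (0.0% of all exons, with 5 of the 20 at an unadjusted p under 0.05). The pair of 76-base exons of Tpm2 nevertheless did not overlap between treatments. The second exon (chr5:59020695-59020770, rn6) was included in 21.9, 28.0 and 27.7% of Tpm2 with DMSO and 36.6, 38.4 and 37.7% with TSA (0.79 ± 0.18, adjusted p = 0.22). The first Tpm3 exon of its pair (chr2:189438656-189438731) was at 87.8, 90.7 and 82.2% with DMSO and 76.4, 75.8 and 53.7% with TSA (-1.53 ± 0.49, adjusted p = 0.44). Without TSA replicate 3 that change was -1.05. The other exon of each pair mirrored these values, and a 79-base Tpm3 exon (chr2:189441196-189441274) went from 11.1 to 27.6% by group mean (1.56, and 1.097 without TSA replicate 3). Tpm4 made up 13.2% ± 1.68 (SD, n = 3) of tropomyosin FPKM with DMSO and 7.87% ± 1.90 with TSA, and Tpm1 71.5% ± 4.34 and 77.7% ± 2.77.

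**Figure D5:**
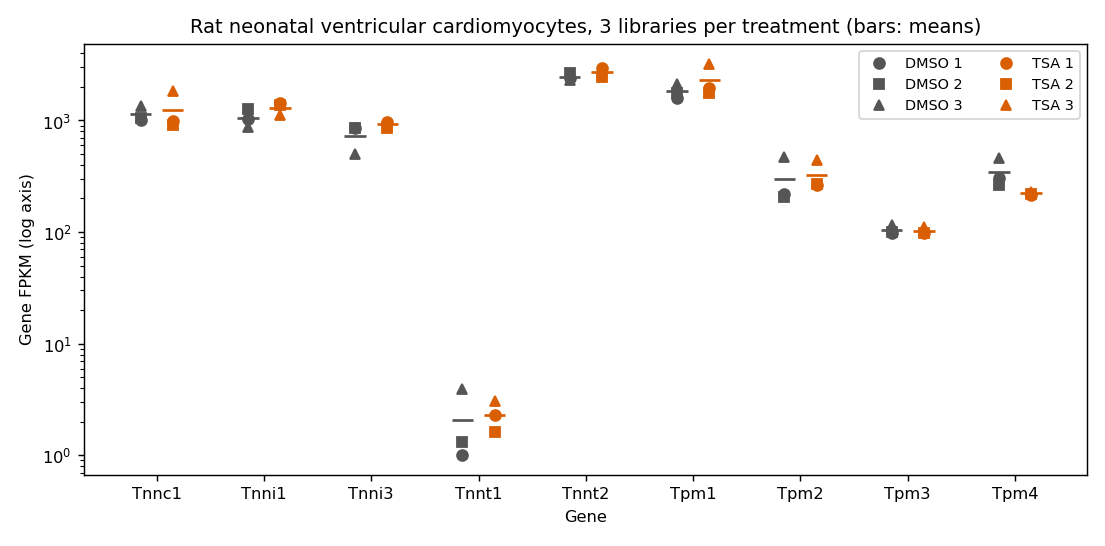
Gene FPKM on a log axis in the 6 rat libraries, with grey points for DMSO, orange points for TSA, a symbol for each replicate number and bars for group means. Tpm4 and Tnni3 are the genes whose groups do not overlap, with Tpm4 at 214 to 230 FPKM with TSA and 264 to 462 FPKM with DMSO.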

How the data were processed

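RNA-seq (8 mouse and 6 rat libraries) and ATAC-seq (8 mouse libraries) were used. Per the methods and the labels, the authors aligned RNA-seq reads with HISAT2 2.1.0 and quantified annotated transcripts with StringTie (1.3.5 for mouse), on mm10 (GENCODE annotation) and rn6 (Ensembl annotation). The deposited transcript files hold coverage, FPKM and TPM but no read counts, so gene levels are sums of transcript FPKM and no count test was run. StringTie divides fragments among transcripts by a model, which adds error to isoform shares that replicates only partly show. Strand was not stated, so overlapping antisense reads cannot be told apart. For ATAC-seq, the authors called peaks per library with MACS2 after removing duplicates. Their files give a score, a fold enrichment at the summit and −log10 p and q values, of which fold enrichment and the score's rank were used, as deposited. ATAC-seq libraries were not normalised to each other here, and the numbers of peaks differ widely.

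Levels were compared as log2(FPKM + 1) with limma 3.58.1 in R 4.3.3 (trended variance, Benjamini-Hochberg adjustment over all features), in 1 fit over the 8 mouse libraries and 1 over the 6 rat libraries. Because of the added 1, changes in the level of low genes are understated. ± after a log2 change is the standard error. Transcript use and exon inclusion were tested as log2((A + 1)/(B + 1)), and a call needed an adjusted p under 0.05 and a change over 1. In these tests the added 1 moves low genes towards a ratio of 1, which can create or enlarge a change as a gene falls. The change of Tnnt1-206 was 2.13 from E18.5 to P7, although its mean share went from 7.14 to 0.0%. Named were all members, transcripts with at least 10% of a gene, exons whose inclusion differed by at least 10 percentage points, and the 3 genes most alike in pattern. Scripts were tested on simulated data. Alternatives were the added constant, filters, TPM, median-of-ratios scaling, limma-voom, a replicate block and leaving out each library. Rat libraries with the same number deviated together (r = 0.224, 0.194 and 0.346), so the numbers were taken to pair them, which the labels do not state. Differently numbered rat libraries of the 2 treatments had r from -0.27 to 0.167. The main fit and the exact permutation p were unpaired, and the block changed no rat call of a member. Sequences are from the GRCm38 reference and the RefSeq promoter table. The members and lists were chosen with earlier results of these data known. Authors' comparisons were not used. Python 3.11.15 was used for tables.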

Additional observations from a re-analysis of the deposited data

How the results depend on the processing

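Directions of the 9 genes over age held under TPM, median-of-ratios scaling, limma-voom, other filters and an added constant of 0.1. Relative to 16 cardiomyocyte markers, a scaling chosen after seeing the data, signs turned for Tnni3 (0.19), Tnnt2 (0.66) and Tnnc1 (0.38) at P1 against E18.5, for Tnni3 (0.56), Tnnt2 (0.93), Tnnc1 (0.48) and Tpm1 (1.81) at P3, for Tnni3 (0.36), Tnnt1 (0.26), Tnnt2 (0.84) and Tpm1 (2.47) at P7, and for Tnni3 (0.17), Tnnt1 (0.53), Tnnt2 (0.19) and Tpm1 (0.96) at P7 against P1. On that scale 5, 5 and 3 members passed at P3, at P7 and at P7 against P1, where 13138, 13886 and 13796 of 13979 genes did, nearly all of them higher. Leaving out 1 library gave 5 to 8 members at P3, with 5 without E18.5 replicate 2, where a lone library was assumed to vary like the others. Without a filter the P3 calls of Tnnt2 (adjusted p = 0.058) and Tnnc1 (adjusted p = 0.059) were lost.

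In rat, Tnnc1 changed sign with TPM (-0.0042) and without both replicates 3 (-0.11), the latter chosen after seeing the data. Leaving out 1 rat library gave -0.051 to 0.60 for Tnnt1, -0.24 to 0.25 for Tnnc1, -0.058 to 0.57 for Tpm2 and -0.093 to 0.040 for Tpm3. It gave -0.77 to 0.45 for the use of transcript ENSRNOT00000047682 (Tnnt2), -0.67 to 1.25 for ENSRNOT00000076054 (Tnni1) and -1.95 to 0.81 for ENSRNOT00000076299 (Tnni1).

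Member transcripts with changed use at P7 numbered 10 with an added constant of 0.1, 15 with FPKM of at least 5, and 5 to 16 without 1 library, against 30. Changed exons numbered 6 with 0.1 and 7 to 13 without 1 library, against 23. With 0.1, signs turned for 4 Tnnt1 transcripts (-0.11, -0.16, -0.22 and -0.46) and for Tnnc1-202 (0.16). The change of the 43-base exon of Tnnt1 ranged from -0.072 to 0.14 without 1 library, turning without E18.5 replicate 1 or P7 replicate 2. Members with a peak in all 8 libraries numbered 1 with equal numbers of top peaks and 2 with the upper 0.5 by score, against 4. With only transcripts of at least 10% share, the P7 gain was 28.1 percentage points for the Tnni3 share and 43.9 for the Tpm4 share, against 30.4 and 38.4. Some effects are by construction: fewer transcripts tested, fewer libraries, and ratios of low levels moved by the added constant. Apart from these, the cause of the changes was not tested.

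With the replicate number as a block, 5, 8, 9 and 7 members passed in the 4 age comparisons and 0 in rat, as without it. Of all 13979 mouse genes, 2270, 3062, 3875 and 1247 passed under the block, and of all 13625 rat genes 339. At P7, 27 member transcripts and 23 member exons passed under it, where 1190 of 22596 transcripts and 1185 of 19445 exons did. The use of Tnnt2-206 (adjusted p = 0.051) and Tnnt1-201 (adjusted p = 0.067) was lost under the block. Same-numbered mouse libraries of different ages did not deviate together in every pair (r from -0.096 to 0.171), so the numbers were not taken to pair them. Over single genes, transcripts and exons and all alternatives, 892 values kept their direction and side of the threshold, 79 kept the direction but no longer passed, 6 kept it and newly passed, and 33 changed direction. Depth does not limit the abundant members, but Tnnt1 at P7 and minor transcripts rest on few fragments.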
